A study of Homo sapiens with 12 samples.

Results

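The unfolded protein response and the integrated stress response were followed through 38 genes in Huh7 cells treated with the prolyl hydroxylase inhibitor Molidustat. The genes were taken by symbol from a list of endoplasmic reticulum (ER) chaperones, oxidoreductases, degradation factors, stress sensors and ATF4 target genes. That list was chosen with earlier results of these data known. Its genes make up 38 of the 60666 genes counted in each library. Of these, 37 were found by their current symbol and 1, listed as VIMP, under its current name SELENOS. By role they comprised 11 chaperones and cofactors, 6 oxidoreductases, 6 genes of ER degradation and translocation, 5 sensors, and 10 genes of the ATF4 branch.

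Huh7 cells are a long-established line from a human hepatocellular carcinoma, and Molidustat blocks the enzymes that mark the alpha subunits of hypoxia-inducible factor (HIF) for destruction. Cells received 25 µM Molidustat or DMSO alone for 24 h or 48 h in medium with 10% serum and penicillin/streptomycin, with no further agent named and no genetic change, and each of these 4 groups holds 3 libraries. The libraries read the 3′ end of transcripts, and the deposited values are whole read counts per gene. The paper speaks of biological replicates whereas the GEO record speaks of extractions in triplicate, so an SD or p-value over 3 libraries may cover technical spread only. At 24 h, 2462623 to 4744982 counts fell on genes with DMSO and 2703897 to 8202125 with Molidustat. At 48 h, the ranges were 1499273 to 9179389 with DMSO and 2312396 to 5122636 with Molidustat. Levels are given below as CPM, which are counts scaled to the size of each library with TMM factors. In bulk RNA, fewer cells expressing a gene and less RNA per cell cannot be told apart.

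Markers of hepatocytes were abundant in all libraries and those of other cell types were at or near 0. The summed level of 9 such genes ran from 8768 CPM in DMSO 48 h replicate 2 to 25897 CPM in Molidustat 48 h replicate 2, and the most abundant was AFP, with a mean of 6136 CPM in DMSO at 24 h. At 48 h the sum was 22994 to 25897 CPM with Molidustat and 8768 to 16996 CPM with DMSO, with no overlap, whereas at 24 h the groups overlapped, at 16962 to 24076 and 13318 to 18119 CPM. The part of this shift in the values of the stress response genes was not tested. Of the leukocyte markers, CD3E was at 0 in all 12 libraries and PTPRC never exceeded 0.577 CPM. The summed level of the 4 leukocyte markers was at most 14.7 CPM and that of the 5 stromal and endothelial markers at most 9.32 CPM, with VWF at 0 throughout. At 48 h the leukocyte sum was 9.66 to 14.7 CPM with Molidustat and 2.13 to 5.37 CPM with DMSO, with no overlap. At 24 h the leukocyte sums overlapped, as did the stromal and endothelial sums at both times. Single markers whose Molidustat libraries lay all above DMSO were CD14 at 48 h and COL1A2 at both times. The share over all genes was 7.26% at 24 h and 9.96% at 48 h. The part of these shifts in the stress response values was not tested.

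Proteins that enter the ER are folded by chaperones and cross-linked by oxidoreductases, and molecules that fail are sent back to the cytosol for degradation. When unfolded protein accumulates, the membrane sensors IRE1 (gene ERN1), PERK (EIF2AK3) and ATF6 signal to the nucleus: IRE1 splices XBP1 mRNA, ATF6 is cut to release a transcription factor, and PERK phosphorylates the initiation factor eIF2. That phosphorylation is shared with GCN2 (EIF2AK4), which senses amino acid shortage, and it favours translation of ATF4, the transcription factor of the integrated stress response. Hepatocytes secrete large amounts of plasma protein and depend on this machinery. XBP1 splicing, eIF2 phosphorylation and ATF4 translation are not seen in gene counts, which show only the transcripts of the sensors and of their target genes.

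The DNA elements through which these branches act stand close to the start of many of the 38 genes. Promoter windows from RefSeq (GRCh38.p14), 250 bases before to 50 after the start, were held for 37 of them, PDIA3 being the exception. Since 11 of these genes had more than 1 window, a gene was counted as holding an element if any of its windows did, and the shares of all genes were counted in the same way. The ER stress response element (ERSE: CCAAT, any 9 bases, CCACG, searched on both strands), which ATF6 and XBP1 recognise, was found in 8 of 37 (CALR, CANX, CRELD2, ERO1B, HSP90B1, HSPA5, PDIA6, XBP1), against 0.0916% of 27305 genes with a window. Its variant ERSE-II (ATTGG, any base, CCACG) was found in HERPUD1, HYOU1 and SDF2L1, against 0.0696% of all genes. Examples are printed 5′ to 3′ on the strand of the gene, with the element in capitals; where the element lies on the opposite strand the capitals show its complement.
HSPA5, ERSE 66 bases before the start, chr9:125241385-125241414: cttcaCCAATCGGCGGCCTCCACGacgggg
HSP90B1, ERSE 194 bases before the start, chr12:103930211-103930240: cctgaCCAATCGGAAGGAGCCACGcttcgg
XBP1, ERSE 52 bases before the start, chr22:28800597-28800626: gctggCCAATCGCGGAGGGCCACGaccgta
CALR, ERSE on the opposite strand, chr19:12938379-12938408: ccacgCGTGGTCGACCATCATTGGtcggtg
HERPUD1, ERSE-II 117 bases before the start, chr16:56932016-56932045: cggacgccgATTGGGCCACGttgggagagt
HYOU1, ERSE-II on the opposite strand, chr11:119057370-119057399: gccccgtgaCGTGGTCCAATcccaggccga

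The composite element bound by ATF4 with C/EBP proteins (TGATG, any base, AA, both strands) was found in 6 of 37 genes, against 4.46% of all genes: ASNS, ATF3, CEBPG, CHAC1, HERPUD1 and PPP1R15B, of which 5 belong to the ATF4 branch. The element TGACGTGG, known for XBP1, was found in HYOU1 alone, against 0.927% of all genes. The core of the HIF element (ACGTG or GCGTG, both strands) is short and common: 33 of 37 genes held it, against 52.4% of all genes. A core shared bases with 4 of the 9 ERSE sites, all 4 ERSE-II sites and the TGACGTGG site. Such sharing is partly built into the letters. TGACGTGG always holds ACGTG, and the CCACG of both ERSE forms makes a core whenever T or C follows. The share of the 37 genes with a core is thus not independent of these elements. ERO1A, whose transcript level moved most at 24 h, held 3 cores and none of the other elements. This was not particular to it: TRIB3, SELENOS, ATF4, DNAJB9 and SYVN1, among others, also held cores alone. The 33 holders of a core had a median log2 fold change of 0.06 at 24 h, from -0.86 to 1.93, and the 4 others 0.002. The part of the cores in the value of ERO1A was not tested. Its pair of cores before the start is printed below after 3 C/EBP-ATF elements of the ATF4 branch. These are matches of letters and not binding sites measured in Huh7.
ASNS, C/EBP-ATF element 68 bases before the start, chr7:97872458-97872487: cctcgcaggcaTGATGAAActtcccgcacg
CEBPG, C/EBP-ATF element 42 bases before the start, chr19:33374060-33374089: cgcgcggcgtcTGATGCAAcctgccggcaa
CHAC1, C/EBP-ATF element on the opposite strand, chr15:40953251-40953280: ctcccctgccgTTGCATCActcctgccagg
ERO1A, HIF core on the opposite strand, chr14:52695711-52695740: gtgcgtcagcctCACGCggcgggaaggaac
ERO1A, HIF core on the opposite strand, chr14:52695655-52695684: cgggcgccgcggCACGTccacaggctgggt

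One library stood apart and bears on every value at 48 h. DMSO 48 h replicate 2 was the smallest, and 50.4% of its listed reads fell outside annotated genes, compared with 17.1 to 25.6% for the 11 others. Its log2 CPM correlated with the other libraries at 0.707 to 0.782, whereas those correlated with each other at 0.855 to 0.956. Among genes with a mean over 10 CPM, 46.5% lay more than 2-fold from the median of the other libraries there, against 2.32 to 12.6% for each of the 11 others. Of the 33 stress response genes above that level, 18 did so, against at most 6 in any other library.

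Several of the 38 genes were higher in that library than in any other. ERO1A stood 10.9-fold, CALR 7.25-fold, SEL1L 6.38-fold, EDEM1 5.80-fold, DNAJC3 5.53-fold, the thinly counted ERO1B 5.20-fold and PPP1R15B 5.08-fold above the median of the 11 others, with 1 CPM added to each value. SEL1L, the adaptor of the HRD1 ubiquitin ligase, was at 2049 CPM there and between 278.5 and 505 CPM elsewhere. CALR, the lectin chaperone calreticulin, was at 2678 CPM and at most 1294 CPM elsewhere. At the other end, ASNS (asparagine synthetase) had 0 counts, DDIT3 had 9 and PDIA3 stood at 0.287 of the median. Over all 12 libraries the summed level of the 38 genes was 14350 CPM in this library and 7253 to 10249 CPM in the others.

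Of the genes raised most in that library, ERO1A, SEL1L, EDEM1, DNAJC3, ERO1B and PPP1R15B have canonical transcripts of 4994 to 7919 bases, while that of CALR has 1901. Long transcripts were also found among the genes lower there, such as ERN1 (7895 bases, 0.347 of the median) and EIF2AK4 (5538 bases, 0.473 of the median). Across the genes over 10 CPM, the log2 ratio of this library to the median of the others correlated with transcript length with a Spearman rho of 0.36, against -0.26 to 0.15 for the 11 others. Across the 33 stress response genes rho was 0.45, a size that other libraries reached as well, from -0.45 in DMSO 24 h replicate 2 and -0.44 in DMSO 48 h replicate 3 to 0.38 in Molidustat 24 h replicate 2. All these points come from the same library, and the part of RNA quality, depth or transcript length in its profile was not tested. Log2 fold changes at 48 h are therefore given first with all libraries and then without it.

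**Figure D1:**
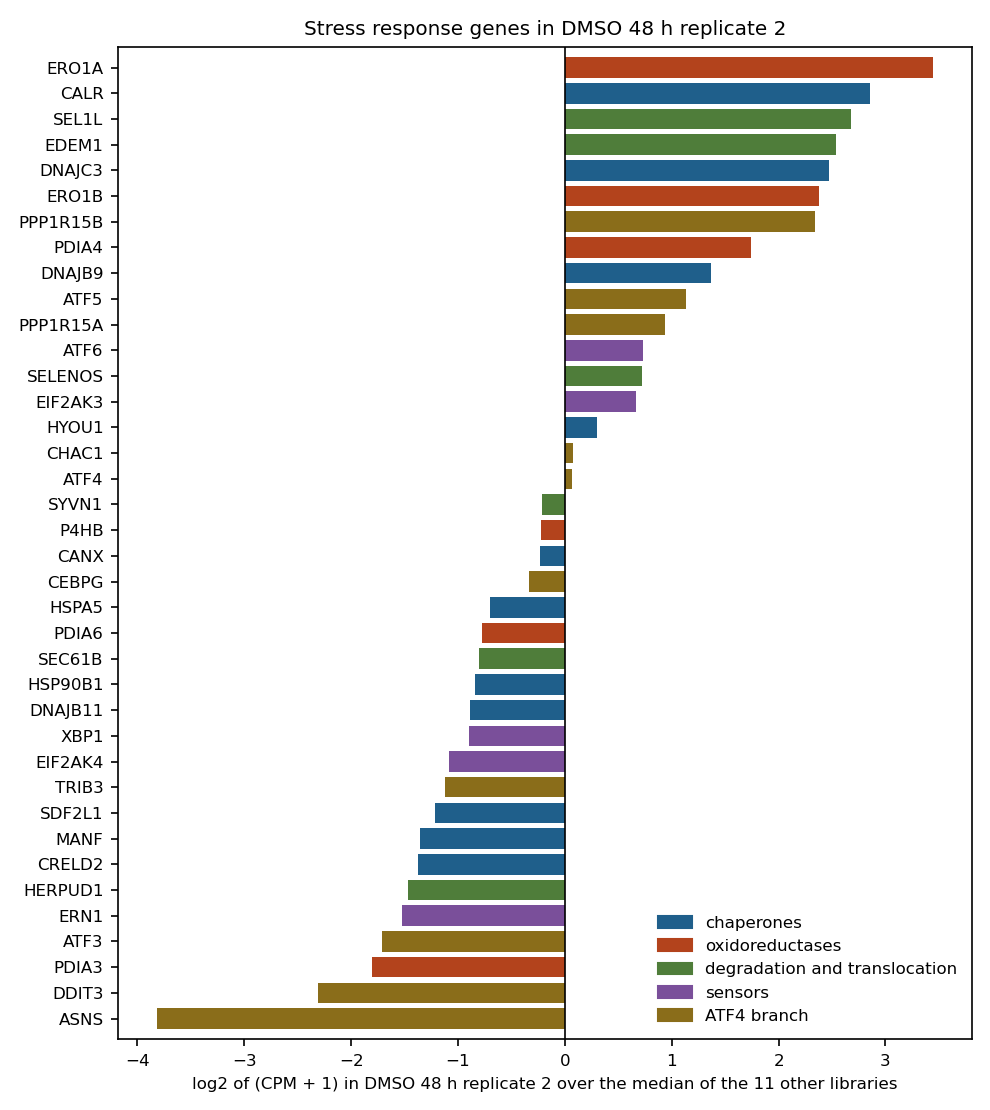
Bars give, for each of the 38 genes, the log2 ratio of (CPM + 1) in DMSO 48 h replicate 2 to the median of the 11 other libraries, coloured by role. ERO1A (3.45) and ASNS (-3.82) form the ends, and genes of every role lie on both sides of 0.

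With all 12 libraries no stress response gene was called with Molidustat at either time, and the 38 genes were centred close to all genes tested. All 38 genes passed the filter on low counts, and 0 of 38 were called at 24 h or at 48 h by the quasi-likelihood test of edgeR (Benjamini-Hochberg adjustment over 14274 genes), a call being an adjusted p under 0.05 with a log2 fold change beyond 1. The same rule called 0.231% of all genes at 24 h and 0.231% at 48 h. The median log2 fold change of the 38 genes was 0.07 at 24 h and 0.02 at 48 h, beside 0.02 and 0.01 for all genes tested. At 24 h, 21 were above 0 and 17 below, and 37 lay within 1 on the log2 scale. At 48 h, 19 were above 0 and 19 below, and 27 lay within 1. The sign often rested on 1 library: on leaving out each library in turn it changed for 18 of 38 genes at 24 h and 17 at 48 h, 10 of the latter on leaving out DMSO 48 h replicate 2 alone.

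An unadjusted p under 0.05 was reached by 2 of 38 genes at 24 h, both higher (ERO1A and P4HB), beside 5.25% of all genes. At 48 h, 8 reached it, beside 13.3% of all genes: DDIT3 was higher, and CALR, DNAJC3, HYOU1, ERO1A, SEL1L, ATF5 and PPP1R15B were lower. DESeq2 and limma-voom with sample quality weights called 0 of 38 in either comparison. The median standard error over the 38 genes was 0.422 at 24 h and 0.425 at 48 h, and a gene without a call is not thereby shown to be unchanged.

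Without DMSO 48 h replicate 2, 1 of 38 genes was called higher at 24 h (ERO1A), beside 0.728% of 15253 genes tested, and 0 at 48 h, beside 0.315%. The library enters the 24 h values only through the spread that all groups share, the filter and the scaling. At 48 h the median of the 38 genes was then 0.00, with 19 above 0 and 19 below, 36 lay within 1, and the number of genes with an unadjusted p under 0.05 fell to 4 (HYOU1, ERO1A, ATF5 and DDIT3), beside 6.6% of all genes. Of the 9 hepatocyte markers, 0 were called at either time with all libraries. In the fit without that library SERPINA1 (alpha-1-antitrypsin) was called higher at both times, at 1.23 (SE 0.26, adjusted p = 0.0474) at 48 h.

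**Figure D2:**
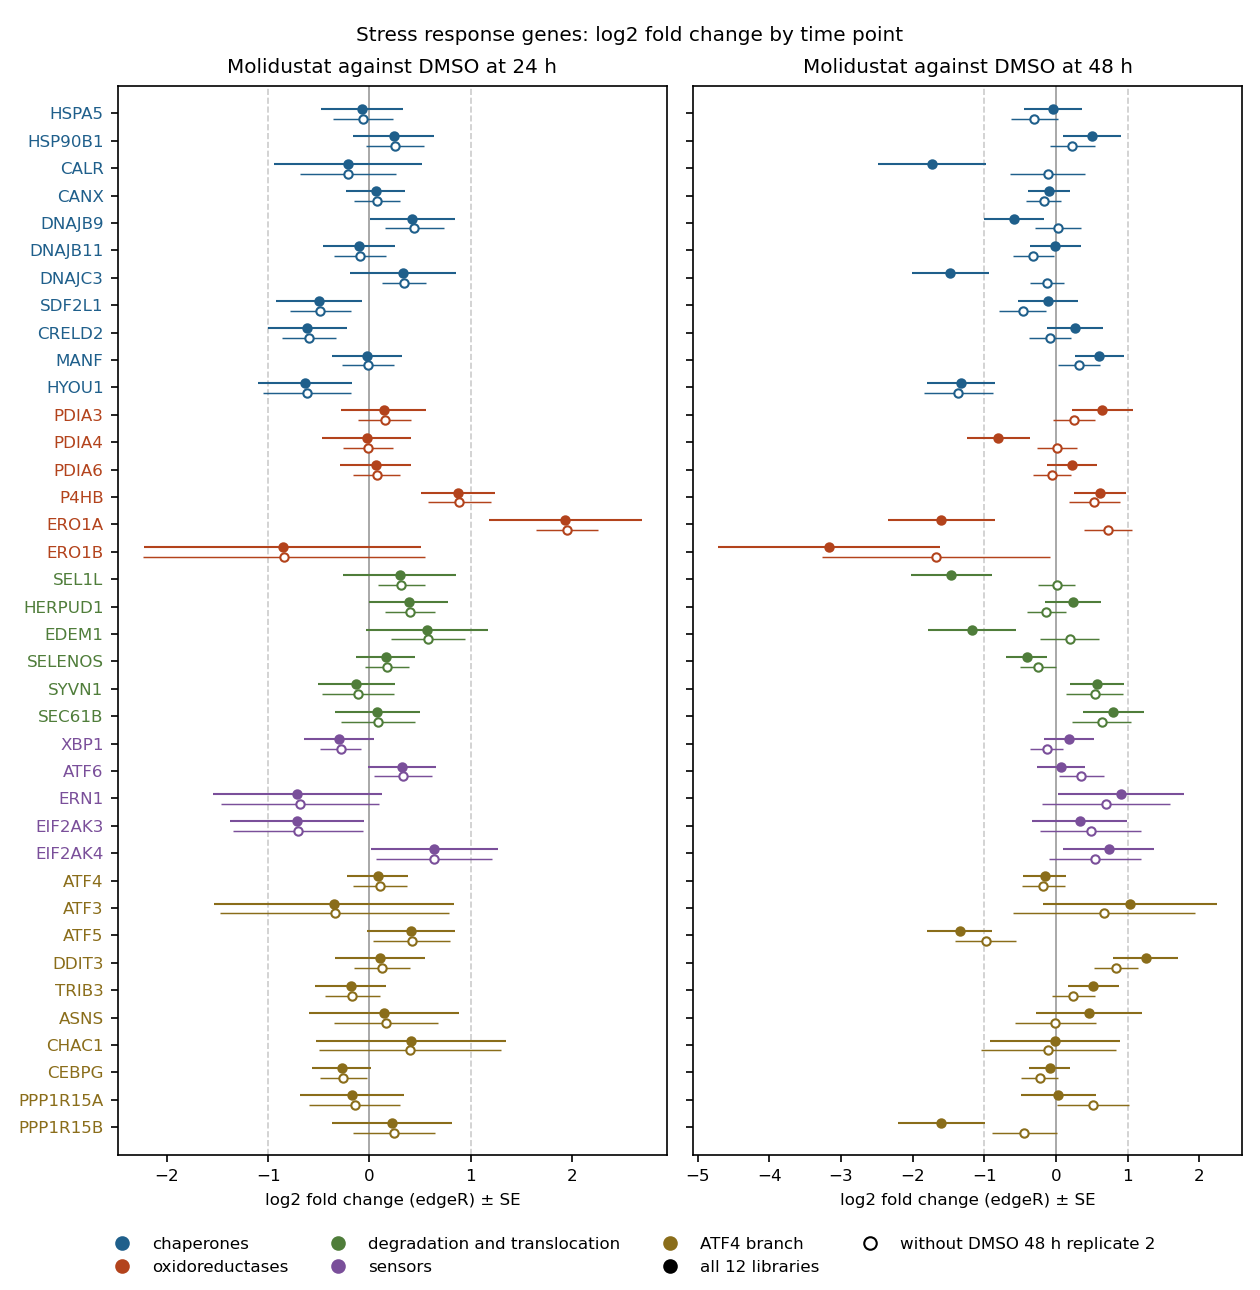
Points give the log2 fold change of Molidustat against DMSO with its SE for each of the 38 genes at 24 h (left) and 48 h (right), filled with all 12 libraries and open without DMSO 48 h replicate 2; dashed lines mark a log2 change of 1. At 24 h both fits lie close together and ERO1A stands alone near 1.93, whereas at 48 h CALR, DNAJC3, SEL1L, EDEM1, ERO1A and PPP1R15B move towards or past 0 once that library is left out.

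For some genes the Molidustat and DMSO libraries did not overlap. At 24 h the Molidustat libraries lay all above for ERO1A, P4HB and DNAJC3, beside 7.26% of all genes, and all below for CRELD2, beside 5.02%. At 48 h they lay all above for DDIT3, PDIA3, P4HB, MANF and TRIB3, beside 9.96%, and all below for ERO1B, ATF5, HYOU1 and SELENOS, beside 8.02%. The counts at 48 h without DMSO 48 h replicate 2 were 7 above, with ERO1A and PPP1R15A added, beside 13.7%, and 7 below, with HSPA5, DNAJB11 and CEBPG added, beside 15.4%. These shares of 38 are of the size of the background or near it in both sets of libraries.

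Among the sensors no transcript was called. XBP1, the target of IRE1, was at 865, 854 and 732.5 CPM with DMSO and 751, 659 and 586 CPM with Molidustat at 24 h, and the groups overlapped. The change on the log2 scale was -0.30 (SE 0.35) at 24 h and 0.18 (SE 0.35) at 48 h, or -0.13 (SE 0.22) without DMSO 48 h replicate 2. ATF6 changed by 0.32 (SE 0.34) at 24 h and 0.07 (SE 0.34) at 48 h, or 0.36 (SE 0.32) without that library. The kinases were thinly counted: EIF2AK3 had 7 to 87 reads per library and ERN1 1 to 85, and their SEs ran from 0.66 to 0.88. EIF2AK4, the amino acid sensor, changed by 0.64 (SE 0.63) and 0.74 (SE 0.64), the latter being 0.54 (SE 0.64) without DMSO 48 h replicate 2. The 24 h value of EIF2AK4 ran from 0.12 without DMSO 24 h replicate 2 to 1.08 without DMSO 24 h replicate 3. The 5 sensors together had a median log2 fold change of -0.30 at 24 h and 0.33 at 48 h, or 0.49 without DMSO 48 h replicate 2.

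The mRNA of ATF4 itself differed between treatments by less than the libraries of a group did. It was at 58.6, 96.3 and 64.0 CPM with DMSO and 61.0, 82.9 and 87.3 CPM with Molidustat at 24 h, and at 81.3, 75.6 and 72.2 against 53.9, 72.1 and 79.5 CPM at 48 h. The groups overlapped at both times, with log2 fold changes of 0.08 (SE 0.30, adjusted p = 0.999) and -0.16 (SE 0.30, adjusted p = 0.879), or -0.18 (SE 0.30) at 48 h without DMSO 48 h replicate 2. ATF4 has 4 named pseudogenes that could share its reads.

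DDIT3, which encodes the pro-apoptotic factor CHOP, was the gene of the ATF4 branch with the largest positive value at 48 h. At 24 h it was at 44.3, 59.3 and 30.8 CPM with DMSO and 43.7, 48.9 and 51.5 CPM with Molidustat. At 48 h it was at 50.6, 9.58 and 52.0 CPM with DMSO and 76.6, 87.1 and 114.3 CPM with Molidustat. The groups overlapped at 24 h and not at 48 h, and replicate 2 was again the low one of the DMSO group. At 48 h the log2 fold change was 1.25 (SE 0.45, adjusted p = 0.241), and 0.84 (SE 0.31, adjusted p = 0.537) without that library. Exons of DDIT3 overlap those of MARS1 on the opposite strand, and the counting is not stated to have used the strand.

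ATF5, an ATF4-controlled transcription factor of the same family, went the other way at 48 h. Its levels were 19.9, 51.1 and 31.1 CPM with DMSO and 15.7, 9.01 and 14.1 CPM with Molidustat, with no overlap. This gave a log2 fold change of -1.34 (SE 0.45, adjusted p = 0.23), and -0.98 (SE 0.43, adjusted p = 0.683) without DMSO 48 h replicate 2, the highest library of its group. At 24 h the value was 0.41 (SE 0.43), and the groups overlapped. Exons of ATF5 overlap those of NUP62 and IL4I1 on the opposite strand.

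TRIB3, the pseudokinase that feeds back on ATF4 and AKT, had all 3 Molidustat libraries above DMSO at 48 h, at 105, 100.4 and 111 CPM against 86.75, 40.5 and 90.0 CPM. Its log2 fold change was 0.52 (SE 0.36, adjusted p = 0.584) at 48 h, or 0.24 (SE 0.30) without DMSO 48 h replicate 2, and -0.19 (SE 0.35) at 24 h. ASNS changed by 0.14 (SE 0.74) and 0.46 (SE 0.74), the 48 h value being -0.01 (SE 0.57) without that library. CEBPG, the dimer partner of ATF4, gave -0.27 (SE 0.29) and -0.09 (SE 0.29), and at 48 h -0.23 (SE 0.26) without it, when all 3 Molidustat libraries lay below DMSO. PPP1R15A and PPP1R15B guide the phosphatase that reverses eIF2 phosphorylation. PPP1R15A gave 0.04 (SE 0.52) at 48 h, and 0.52 (SE 0.51) without DMSO 48 h replicate 2. PPP1R15B gave -1.60 (SE 0.61), and -0.44 (SE 0.45) without that library. ATF3 and CHAC1, which is a glutathione-degrading enzyme, had 0 to 25 and 1 to 95 reads per library, and SEs from 0.91 to 1.21.

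**Figure D3:**
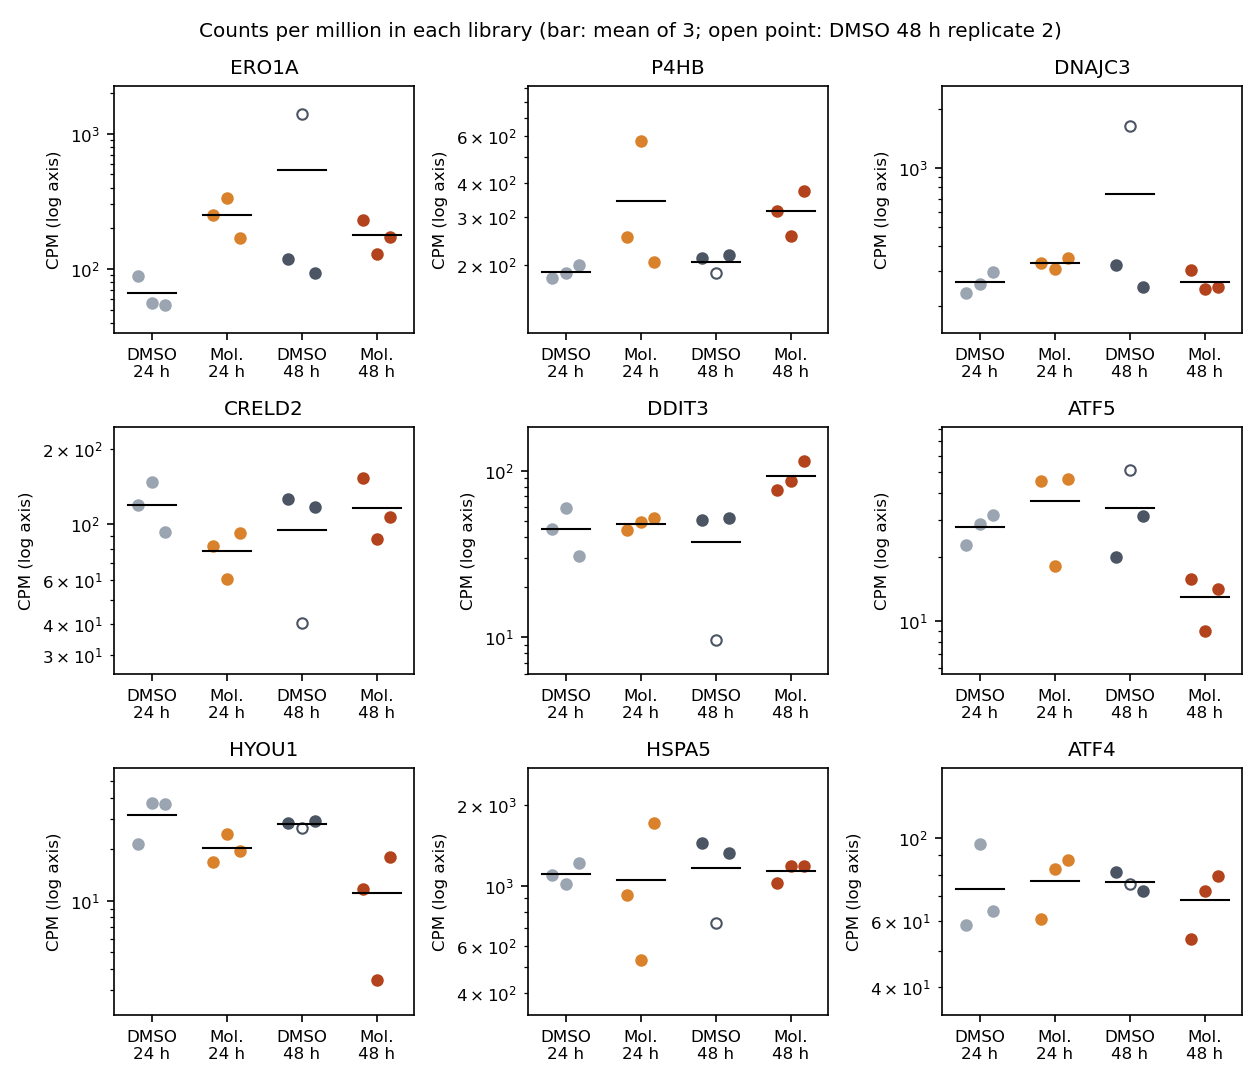
CPM on a log axis in each of the 12 libraries for 9 genes, with the mean of 3 as a bar and DMSO 48 h replicate 2 as an open point. ERO1A and P4HB lie higher with Molidustat at 24 h, DDIT3 higher and ATF5 and HYOU1 lower at 48 h, while HSPA5 and ATF4 overlap between groups at both times. With the open point set aside, the 48 h Molidustat points of HSPA5 lie below those of DMSO and those of ERO1A above.

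HSPA5, HSP90B1 and CANX were not called, and whether the groups of HSPA5 overlapped at 48 h depended on DMSO 48 h replicate 2. HSPA5 (BiP), which holds the sensors inactive and is the classical readout of the unfolded protein response, was at 1099, 1012 and 1217 CPM with DMSO and 923, 530 and 1708 CPM with Molidustat at 24 h. At 48 h it was at 1438, 726 and 1320 CPM against 1024, 1182 and 1185 CPM. Its log2 fold change was -0.07 (SE 0.40, adjusted p = 0.999) and -0.04 (SE 0.40, adjusted p = 0.984). The groups overlapped at both times, but at 48 h only through DMSO 48 h replicate 2: without it all 3 Molidustat libraries lay below DMSO, and the value was -0.30 (SE 0.33, adjusted p = 0.98). The 24 h value ran from -0.62 without Molidustat 24 h replicate 3 to 0.25 without Molidustat 24 h replicate 2. HSP90B1 (GRP94) gave 0.24 (SE 0.40) and 0.51 (SE 0.40), the latter being 0.23 (SE 0.32) without that library. CANX, the membrane lectin chaperone calnexin, gave 0.06 (SE 0.29) and -0.09 (SE 0.29), or -0.17 (SE 0.25) at 48 h without it. Pseudogenes named after HSPA5, HSP90B1 and PDIA3 could share reads with them.

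CRELD2, a secreted cofactor of the oxidoreductases and a known ATF6 target, had all 3 Molidustat libraries below DMSO at 24 h. Its levels were 119, 147 and 93.0 CPM with DMSO and 81.7, 60.3 and 92.3 CPM with Molidustat, the nearest libraries of the groups being less than 1 CPM apart. The log2 fold change was -0.61 (SE 0.39, adjusted p = 0.999), and at 48 h it was 0.27 (SE 0.39), or -0.09 (SE 0.29) without DMSO 48 h replicate 2. SDF2L1, a partner of the HSP40 cochaperones, gave -0.50 (SE 0.42) at 24 h with overlapping groups. MANF, a secreted ER-stress factor, lay above DMSO at 48 h, at 100.7, 111 and 103 CPM against 69.4, 37.3 and 96.6 CPM, with a log2 fold change of 0.61 (SE 0.35, adjusted p = 0.485), which was 0.32 (SE 0.29, adjusted p = 0.961) without DMSO 48 h replicate 2.

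HYOU1 (GRP170), the nucleotide exchange factor of BiP, had the lowest value of the chaperones at 24 h and did not overlap at 48 h. At 24 h it was at 21.4, 37.4 and 36.8 CPM with DMSO and 16.9, 24.6 and 19.6 CPM with Molidustat, with overlap. At 48 h it was at 28.5, 26.6 and 29.4 CPM against 11.7, 3.43 and 18.0 CPM, with no overlap, and here DMSO 48 h replicate 2 lay with its group. Its log2 fold change was -0.64 (SE 0.46, adjusted p = 0.999) at 24 h and -1.32 (SE 0.47, adjusted p = 0.242) at 48 h, and -1.36 (SE 0.48, adjusted p = 0.483) without that library. It ran from -1.86 to -0.94 at 48 h when each library was left out in turn.

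The HSP40 cochaperones gave values on both sides of 0. DNAJC3 (P58IPK), which delivers clients to BiP and restrains PERK, was at 232, 259 and 296 CPM with DMSO and 330, 308 and 351 CPM with Molidustat at 24 h. The groups did not overlap, and the log2 fold change was 0.33 (SE 0.53, adjusted p = 0.999). At 48 h it was at 323, 1643 and 248 CPM against 305, 242 and 248 CPM, and the value of -1.47 (SE 0.54, adjusted p = 0.247) became -0.12 (SE 0.24) without DMSO 48 h replicate 2. DNAJB9, the cochaperone that represses IRE1, gave 0.43 (SE 0.42) and -0.59 (SE 0.42), the latter being 0.03 (SE 0.32) without that library, which stood at 313 CPM against 141 and 91.2 CPM in the rest of its group. DNAJB11 gave -0.10 (SE 0.36) and -0.01 (SE 0.36), and at 48 h -0.31 (SE 0.29) without it, when all 3 Molidustat libraries lay below DMSO. CALR gave -0.21 (SE 0.73) at 24 h and -1.73 (SE 0.75) at 48 h, or -0.12 (SE 0.53) without that library. The 24 h value of CALR was 0.79 without DMSO 24 h replicate 3 and at or below -0.04 on leaving out any other library.

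ERO1A showed the largest value of the 38 genes at 24 h. It encodes the flavoprotein that reoxidises protein disulfide isomerase with molecular oxygen, and it is known as a HIF target as well as a stress gene. At 24 h it was at 88.0, 56.2 and 53.7 CPM with DMSO and 252, 335 and 169 CPM with Molidustat, so that the lowest Molidustat library lay well above the highest DMSO library. This is a log2 fold change of 1.93 (SE 0.75, adjusted p = 0.808). Without DMSO 48 h replicate 2, which is not a 24 h library, it was 1.95 (SE 0.31, adjusted p = 0.00214) by the same test, and fitted on the 24 h libraries alone it was 1.94 (adjusted p = 0.00980). The value at 24 h ran from 1.67 to 2.20 when each library was left out in turn.

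At 48 h ERO1A was at 118.5, 1409 and 94.0 CPM with DMSO and 231, 128 and 171 CPM with Molidustat. Replicate 2 thus lay above all Molidustat libraries and the other DMSO libraries below all 3 of them. The log2 fold change was -1.60 (SE 0.75, adjusted p = 0.369) with all libraries and 0.72 (SE 0.33, adjusted p = 0.739) without that one, so its direction at 48 h was set by 1 library. ERO1A is overlapped by an unnamed gene of the opposite strand. ERO1B, the isoform of secretory tissue, had at most 16 reads in any library, and its value of -3.16 (SE 1.55) at 48 h, or -1.68 (SE 1.59) without DMSO 48 h replicate 2, rests on 0, 0 and 6 reads with Molidustat.

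P4HB is protein disulfide isomerase, the enzyme that ERO1A reoxidises, and also the beta subunit of the collagen prolyl hydroxylases. With all libraries it was the one gene of the 38 whose Molidustat libraries lay all above DMSO at both times, and ERO1A was another without DMSO 48 h replicate 2. Its levels were 178, 186 and 199.8 CPM against 253, 574 and 205 CPM at 24 h, and 212, 186 and 218 CPM against 316, 254 and 374 CPM at 48 h. On the log2 scale the changes were 0.87 (SE 0.36, adjusted p = 0.872) and 0.62 (SE 0.36, adjusted p = 0.507), the 48 h value being 0.54 (SE 0.35) without that library. The 24 h value fell to 0.28 without Molidustat 24 h replicate 2, its highest library.

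The other disulfide isomerases showed no such pattern. PDIA3 (ERp57), the partner of calnexin and calreticulin, was at 440, 126 and 404 CPM with DMSO and 554, 504 and 470 CPM with Molidustat at 48 h. The groups did not overlap, and the log2 fold change was 0.65 (SE 0.43, adjusted p = 0.563), or 0.26 (SE 0.29) without DMSO 48 h replicate 2. At 24 h it gave 0.14 (SE 0.42). PDIA6 gave 0.06 (SE 0.35) and 0.22 (SE 0.35), and PDIA4 -0.03 (SE 0.44) and -0.80 (SE 0.44). Without that library their 48 h values were -0.05 (SE 0.26) and 0.01 (SE 0.28).

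Genes of ER degradation and translocation had a median log2 fold change of 0.23 at 24 h, with 5 of 6 above 0, and of -0.09 at 48 h, with 3 of 6 above 0, or 0.10 with 4 of 6 without DMSO 48 h replicate 2. HERPUD1, a scaffold of the HRD1 complex, gave 0.39 (SE 0.39) and 0.24 (SE 0.39). EDEM1, the mannosidase-like lectin that selects glycoproteins, gave 0.56 (SE 0.60) and -1.17 (SE 0.61), and SEL1L 0.30 (SE 0.56) and -1.46 (SE 0.57). All of these 48 h values were tied to the same library, since HERPUD1 gave -0.14 (SE 0.27), EDEM1 0.19 (SE 0.41) and SEL1L 0.01 (SE 0.26) without it. SELENOS, a selenoprotein of the retrotranslocation complex, was at 239.5, 340 and 250.3 CPM with DMSO and 205, 196 and 222.5 CPM with Molidustat at 48 h, with no overlap and a log2 fold change of -0.41 (SE 0.29, adjusted p = 0.601), or -0.25 (SE 0.25) without DMSO 48 h replicate 2, the highest of its group. SYVN1 (HRD1 itself) gave -0.13 (SE 0.38) and 0.57 (SE 0.38), and SEC61B, a subunit of the translocon, 0.08 (SE 0.42) and 0.80 (SE 0.42). Without that library SYVN1 gave 0.54 (SE 0.40) and SEC61B 0.64 (SE 0.41) at 48 h. The 48 h value of SEC61B ran from 0.22 without Molidustat 48 h replicate 2 to 1.07 without Molidustat 48 h replicate 1.

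The difference between the responses at 48 h and 24 h was called for 0 of 38 genes, as for 0.0% of all genes. An unadjusted p under 0.05 was reached by 5 of 38, all with a lower response at 48 h, beside 6.78% of all genes: DNAJC3, ERO1A, SEL1L, ATF5 and PPP1R15B. Of these, only ERO1A and ATF5 reached it without DMSO 48 h replicate 2, beside 3.19% of all genes. ERO1A had the largest, at -3.54 (SE 1.06, adjusted p = 0.728), and -1.23 (SE 0.44, adjusted p = 1) without DMSO 48 h replicate 2. The difference for ATF5 was -1.75 (SE 0.63, adjusted p = 0.728), and -1.40 (SE 0.57, adjusted p = 1) without that library.

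Time in culture was compared within each treatment by the same test. In DMSO, 0 of 38 genes were called between 48 h and 24 h, beside 0.00701% of all genes, and 6 reached an unadjusted p under 0.05, beside 8.14%. Of these, DNAJB9, DNAJC3, ERO1A, SEL1L and EDEM1 were higher at 48 h and ERN1 lower. On leaving out DMSO 48 h replicate 2, 3 genes reached it, beside 4.03%: PDIA6, ERO1A and HERPUD1, all higher. DESeq2 called ERO1A higher, beside 0.124% of the 28215 genes it gave a p-value. The edgeR log2 fold change of ERO1A was 3.02 (SE 0.79, adjusted p = 0.541) with all libraries and 0.71 (SE 0.33, adjusted p = 1) without DMSO 48 h replicate 2. With Molidustat, 0 of 38 were called, beside 0.0% of all genes, and ATF5 and DDIT3 reached an unadjusted p under 0.05, beside 4.58%. ATF5 was lower at 48 h by a log2 fold change of -1.48 (SE 0.45, adjusted p = 1), from 45.5, 18.2 and 46.5 CPM to 15.7, 9.01 and 14.1 CPM, a comparison that holds no DMSO library.

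Genes with the ER stress element had values on both sides of 0. The 8 holders of an ERSE had a median log2 fold change of -0.14 at 24 h, with values from -0.86 to 0.24 and 3 above 0, and the 29 genes without it a median of 0.11. At 48 h the medians were 0.07 and -0.01 with all libraries, and in the reverse order, at -0.12 and 0.03, without DMSO 48 h replicate 2, when 1 of the 8 holders was above 0 in place of 4. The 6 holders of the C/EBP-ATF element had a median of 0.18 at 24 h, and of 0.11 at 48 h with all libraries and -0.12 without that one. The elements were matched by letters, and no p-value was computed on these groups.

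Other genes of the same pathways, taken from lists of their known functions that were drawn up with earlier results of these data known, gave few calls. Of 32 other ER folding genes, 32 other genes of ER degradation and translocation, and 17 other sensors and transducers that could be tested, 0 were called at either time. At an unadjusted p under 0.05 these lists counted 1, 1 and 1 genes at 24 h, beside 5.25% of all genes, and 5, 6 and 2 at 48 h, beside 13.3%. Their median log2 fold changes were 0.06, 0.10 and -0.27 at 24 h, and 0.18, 0.22 and -0.04 at 48 h. Without DMSO 48 h replicate 2, the counts at an unadjusted p under 0.05 at 48 h were 1, 1 and 2, beside 6.6%, and the medians 0.06, -0.04 and -0.10, with 0 called. SEC61G, the smallest translocon subunit, was the gene of the degradation and translocation list whose groups did not overlap at either time, at 1.11 (SE 0.43, adjusted p = 0.804) and 1.61 (SE 0.43, adjusted p = 0.186). At 48 h SEC61G was called by DESeq2 (adjusted p = 0.0206), by limma-voom with sample quality weights (adjusted p = 0.0294) and by edgeR without the filter on low counts (adjusted p = 0.00555), and gave 1.39 (SE 0.42, adjusted p = 0.31) in edgeR without DMSO 48 h replicate 2. EIF2S1, the alpha subunit of eIF2 that the stress kinases phosphorylate, lay below DMSO at both times, at -0.44 (SE 0.34) and -0.98 (SE 0.34, adjusted p = 0.235), the 48 h value being -0.57 (SE 0.25) without that library.

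Chaperones outside the ER gave no calls either. Of 14 cytosolic heat shock genes and 10 mitochondrial chaperones and proteases, 0 were called at either time, with 1 and 1 genes at an unadjusted p under 0.05 at 24 h, beside 5.25% of all genes, and 3 and 0 at 48 h, beside 13.3%. The heat shock genes had a median of -0.22 at 24 h and -0.23 at 48 h, and 2 of 14 were above 0 at 48 h. The 48 h median of the heat shock genes was -0.41 without DMSO 48 h replicate 2, and the Molidustat libraries lay all below DMSO for 6 of 14 in place of 3, while the share over all genes was 15.4% in place of 8.02%. The 48 h median of the mitochondrial genes was -0.04 with all libraries and -0.21 without that one, when 2 reached an unadjusted p under 0.05, beside 6.6%. HSPA9, the mitochondrial HSP70, lay below DMSO at both times, at -0.42 (SE 0.26) and -0.49 (SE 0.26, adjusted p = 0.455), or -0.42 (SE 0.23) at 48 h without it.

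Among 41 other ATF4 targets that could be tested, 1 was called as higher after 24 h and 2 after 48 h, and 0 were called lower. Beside this, 0.231% of all genes were called in either direction at each time, a smaller share than in this list. The list as a whole was centred near 0, with medians of -0.06 and -0.18. The 48 h median without DMSO 48 h replicate 2 was -0.09 with 3 called higher, beside 0.315% of all genes. The Molidustat libraries then lay all below DMSO for 10 of these genes in place of 2, the share over all genes being 15.4% in place of 8.02%. DDIT4 (REDD1), an inhibitor of mTORC1 that is also a known HIF target, was at 16.5, 12.3 and 18.8 CPM with DMSO and 193, 90.9 and 127 CPM with Molidustat at 24 h. At 48 h it was at 39.2, 4.26 and 41.7 CPM against 278, 233 and 341 CPM. All Molidustat libraries lay far above DMSO, with log2 fold changes of 3.10 (SE 0.54, adjusted p = 0.0181) and 3.24 (SE 0.54, adjusted p = 0.0144). INHBE, the hepatokine inhibin beta E, was called at 48 h, at 2.44, 0 and 1.65 CPM against 21.8, 17.6 and 20.7 CPM, with 3.55 (SE 0.70, adjusted p = 0.0499), and gave 1.45 (SE 0.65, adjusted p = 0.911) at 24 h. INHBE lost its call under 12 of 20 alternatives, with adjusted p up to 0.216. DDIT4 lost its call at 24 h under 5 of 20, with adjusted p up to 0.196, each time on leaving out a 24 h library, and at 48 h under 4 of 20, with adjusted p up to 0.305. Without DMSO 48 h replicate 2 the 48 h values were 2.80 (SE 0.34, adjusted p = 0.000414) for DDIT4 and 3.27 (SE 0.66, adjusted p = 0.0352) for INHBE.

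At an unadjusted p under 0.05 the other ATF4 targets counted 4 higher and 4 lower at 24 h, beside 5.25% of all genes in either direction, and 4 higher and 4 lower at 48 h, beside 13.3%. The Molidustat libraries lay all above DMSO for 4 and all below for 5 (SESN2, PHGDH, CTH, MARS1 and YARS1) at 24 h, beside 7.26% and 5.02%, and all above for 7 at 48 h, beside 9.96%. A few more of these targets were singled out after their values were seen. STC2, the secreted glycoprotein stanniocalcin 2, was at 5.05, 0.385 and 4.34 CPM against 20.8, 19.8 and 19.4 CPM at 24 h, with log2 fold changes of 2.54 (SE 0.55, adjusted p = 0.0955) and 2.75 (SE 0.56, adjusted p = 0.0637). GDF15, a stress-induced cytokine, gave 1.55 (SE 0.47, adjusted p = 0.376) and 2.03 (SE 0.48, adjusted p = 0.129), with no overlap at either time. Without DMSO 48 h replicate 2, STC2 was called at both times (adjusted p = 0.022 and 0.048) and GDF15 at 24 h (adjusted p = 0.032), and their 48 h values were 2.77 (SE 0.58) and 1.69 (SE 0.39). The methionyl-tRNA synthetase gene MARS1, which overlaps DDIT3, gave -1.10 (SE 0.30, adjusted p = 0.265) and -0.80 (SE 0.30, adjusted p = 0.25), or -0.82 (SE 0.30) at 48 h without that library.

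The HIF reference genes, a list drawn up with earlier results of these data known, are given for scale. Of 9 tested, the 24 h comparison called 5 higher and the 48 h comparison 2, beside 0.231% of all genes called at each time, and their medians were 2.13 and 1.64. The Molidustat libraries lay all above DMSO for 7 of them at both times, beside 7.26% of all genes at 24 h and 9.96% at 48 h. On leaving out DMSO 48 h replicate 2, 10 could be tested and 2 were called at 48 h, with a median of 1.99. BNIP3, a mitophagy receptor, was at 176, 196 and 103 CPM with DMSO and 1125, 975 and 1232 CPM with Molidustat at 24 h; its log2 fold change was 2.81 (SE 0.34, adjusted p = 0.000977), and 2.68 (SE 0.34, adjusted p = 0.00149) at 48 h. PGK1 gave 2.80 (SE 0.36, adjusted p = 0.00112) and 1.99 (SE 0.35, adjusted p = 0.0235), and at 48 h without DMSO 48 h replicate 2 BNIP3 gave 2.57 (SE 0.29) and PGK1 2.27 (SE 0.30). PDK1, P4HA1 and SLC2A1 were called at 24 h, at 3.60, 2.13 and 1.98. The calls of BNIP3 and PGK1 at 24 h held under all 21 alternatives, whereas those of PDK1, P4HA1 and SLC2A1 were lost under 7 of 20, 4 of 21 and 7 of 21, and those of BNIP3 and PGK1 at 48 h under 1 and 4 of 21. At 24 h ERO1A, at 1.93, was the one stress response gene with a value of that size, and with all libraries its SE of 0.75 was more than that of each of these 5. The SE of ERO1A at 24 h was 0.31 without DMSO 48 h replicate 2, and 0.33 when the 24 h libraries were fitted alone.

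**Figure D4:**
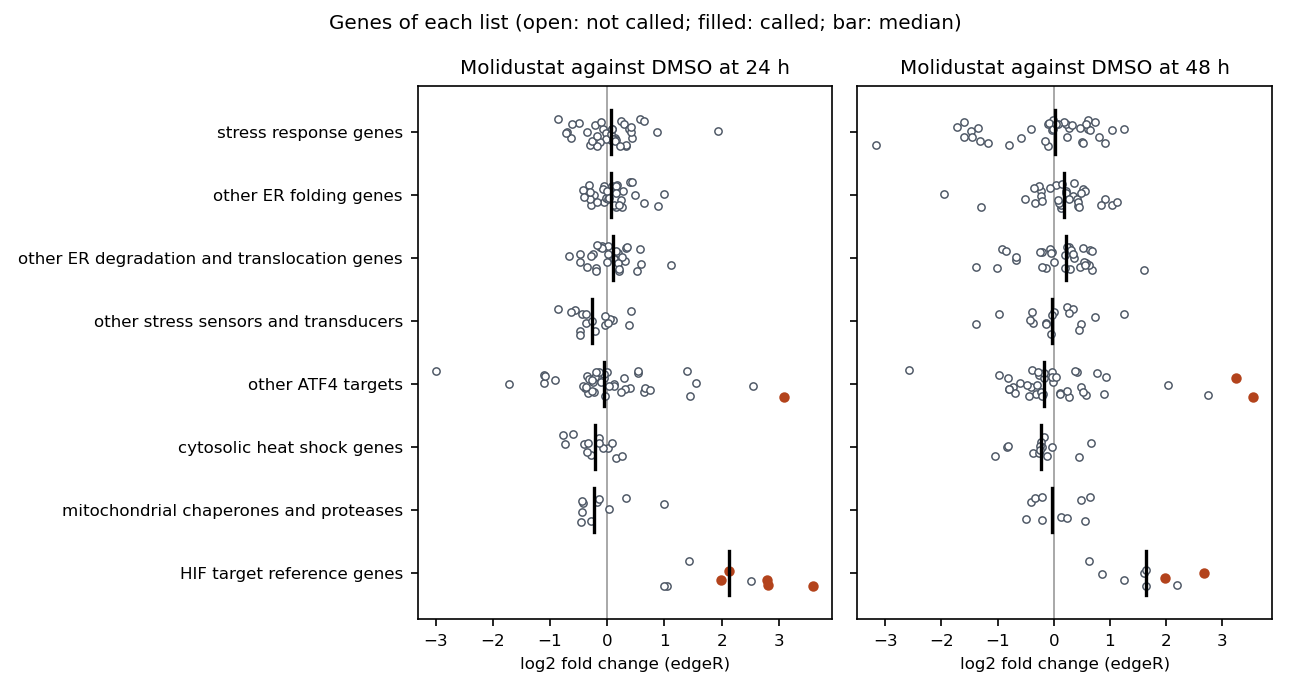
Each point is a gene, placed by its log2 fold change of Molidustat against DMSO at 24 h (left) and 48 h (right) with all 12 libraries, by list; filled points were called, and the bar is the median of the list. The 38 stress response genes are centred at 0.07 and 0.02 with no filled point, while the HIF reference genes are centred at 2.13 and 1.64.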

How the data were processed

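Per the labels and the paper, the authors extracted total RNA, prepared libraries with the QIAseq UPX 3′ kit, and the submitters' processing notes name bcl2fastq 2.17.1.14, cutadapt 1.9.1, STAR 2.7.9a, HTSeq 0.11.2, DESeq2 1.26.0 and build GRCh38. What was deposited are raw whole counts for each gene, not normalized. The annotation release, the strand setting and any collapsing of molecular identifiers are not given in the sources used here, so PCR copies may be among the counts. The members and gene lists were chosen with earlier results of these data known.

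Lines that name no gene (5 per library) were left out of library sizes and tests. Gene names and coordinates came from GENCODE 44. Counts were fitted in R 4.3.3 with edgeR 4.0.16: filterByExpr (minimum count 10, minimum total 15) kept 14274 of 28430 genes with a count, libraries were scaled by TMM, and all 12 libraries entered 1 quasi-likelihood fit with 5 contrasts and Benjamini-Hochberg adjustment over all genes tested. SEs were derived from each fold change and its F statistic. The study's thresholds defined a call: adjusted p below 0.05 and an absolute log2 change over 1. The scripts were tested on simulated data.

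Given in full are members called in a comparison of 2 groups and, at each time and in each direction, the 5 with the largest change whose groups do not overlap. Of each other list, at most 5 genes called were named, or, with none called, the 2 largest with no overlap at both times. Alternatives were DESeq2 1.42.0, limma-voom with sample quality weights (limma 3.58.1), other scalings and filters, a replicate block, the compared groups alone, no threshold on the fold change, and each library left out. Replicates differed by more than sampling noise. Proteome and other data of the paper were not analysed here.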

Additional observations from a re-analysis of the deposited data

How the results depend on the processing

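The count of stress response genes called was 0 in each direction of all 5 comparisons, and it stayed 0 except under 4 alternatives. Without the filter on low counts it was 1 higher at 24 h (ERO1A), 5 lower at 48 h (CALR, DNAJC3, ERO1A, PPP1R15B and SEL1L), 1 lower for the difference between the responses (ERO1A), and 4 higher for DMSO at 48 h against 24 h (DNAJC3, EDEM1, ERO1A and SEL1L). Of all 28430 genes, the same fit called 104, 610, 315 and 387 in these directions. DESeq2 called 1 higher for DMSO at 48 h against 24 h, as for 35 of 28215 genes, and the compared groups alone gave 1 higher at 24 h, as for 57 of 12936 genes, ERO1A in both cases. When each library was left out, the count ranged from 0 to 1 higher at 24 h, the 1 being without DMSO 48 h replicate 2. Why these settings differ was not tested. The median log2 fold change of the 38 genes moved by less than the pooled SD of the library medians (0.21) under every alternative run. That SD is larger than the medians of Molidustat against DMSO, at 0.07 and 0.02, so this cannot show that their sign or size is stable. Total counts in place of TMM moved the median of all genes at 48 h to 0.13 and that of DMSO at 48 h against 24 h to -0.13, against 0.01 and 0.02.

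Of 953 repeats of the 46 results of single named genes, 880 kept their direction and side of the threshold, 44 lost a call, 16 gained one and 13 changed sign. The sign changes were all of values not called. By limma-voom, CRELD2 at 48 h was -0.040, ERO1A at 48 h 0.58 and MANF at 24 h 0.040, and with at least 10 counts in every library MANF at 24 h was 0.012. When each library was left out, CRELD2 at 48 h ranged from -0.087 to 0.51 and ERO1A at 48 h from -2.05 to 0.72, both with the sign changed without DMSO 48 h replicate 2. At 24 h the ranges were -0.12 to 0.35 for DDIT3, -0.23 to 0.17 for MANF, -0.071 to 0.42 for PDIA3 and -0.35 to 0.046 for TRIB3, with the sign changed on leaving out a 24 h library. Replicate numbers did not pair the libraries: over 18 pairs with the same number, deviations from the group means correlated at -0.09 to 0.14, and 9 correlated best with their own number. With the replicate number as a block, 0 of 38 genes were called in each comparison, and INHBE at 48 h (adjusted p = 0.0966) and PDK1 at 24 h (adjusted p = 0.0977) lost their calls.

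Depth limits ATF3, CHAC1, ERN1, EIF2AK3 and ERO1B, which had few reads per library.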
